A study of Mus musculus with 18 samples.

Results

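Wild-type mouse brain at stage E18.5, late in gestation, was compared with wild-type mouse embryonic stem (ES) cells, the cultured pluripotent cells of the early embryo. The comparison used the 3 arrays titled as brain controls and the 3 titled as ES cell controls, 6 of the 18 arrays in the series, and all 17091 genes measured on them. The study behind these arrays was about cyclin C, the partner of the kinases CDK8 and CDK19 in the Mediator complex. It profiled E18.5 brain, ES cells and primary fibroblasts of the embryo, each as wild type and as cyclin C knockout, with 3 arrays that the labels call biological replicates in every group. The knockout arrays were not used here, and the 3 wild-type fibroblast arrays served as a further reference. Every array compared below came from wild-type mice or cells. The labels give the tissue, the genotype and, for brain, the stage. They name no strain, sex, ES cell line or culture medium, and they do not say whether feeder cells were present or how much of the brain was taken.

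ES cells divide rapidly and keep the option to form any tissue through a small network of transcription factors around Pou5f1 (Oct4), Sox2 and Nanog. By E18.5 most cortical neurons of the mouse have been born and are extending axons and building synapses, while radial glia, the neural stem cells, are turning to the production of astrocytes and oligodendrocytes. Loss of the pluripotency network, exit from the cell cycle, relief of repression by REST on neuronal genes, and replacement of subunits in chromatin and splicing complexes are known steps on the way from the first state to the second. The arrays compare a tissue of many cell types with 1 kind of cultured cell. Fewer cells of a type and less RNA of a gene per cell cannot be told apart in such samples, nor can cell type be told apart from growth in culture.

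Values are log2 intensities after robust multi-array averaging (RMA), so that 1 unit is a 2-fold difference. Arrays of 1 group were alike. Correlations across genes were 0.989 to 0.995 between brain arrays and 0.982 to 0.990 between ES cell arrays, against 0.750 to 0.763 between a brain and an ES cell array. The median standard deviation (SD) of a gene over 3 arrays was 0.117 log2 units in brain and 0.149 in ES cells. Some control probe sets moved with the groups. The 3 probe sets for 18S ribosomal RNA read 9.91 to 11.29 in ES cells and 6.39 to 8.71 in brain, apart from 1 reading of 10.61 in brain replicate 3. The 3′ minus 5′ signal of the Gapdh controls was -0.02 to -0.01 in ES cells and 0.11 to 0.19 in brain, and that of the pyruvate carboxylase controls was 0.73 to 1.10 and 1.24 to 1.55. Those of beta-actin (0.17 to 0.23 and 0.17 to 0.24) and of the transferrin receptor (0.93 to 1.22 and 1.13 to 1.29) overlapped between the groups. The part of these readings in the differences below was not tested.

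One ES cell array and each brain array stood apart in a few genes, chosen here after their values were seen unless they are sex-linked. ES cell replicate 1 carried Y-linked transcripts that the other ES cell arrays lacked. Eif2s3y read 8.24 in replicate 1 and 4.0 and 4.21 in the others, and Ddx3y read 7.75, 5.25 and 4.93. Over the 268 X-linked genes above the median ES cell level, the median difference of replicate 1 from the mean of the other 2 arrays was -0.62, and 53 were at least 2-fold lower, while the median of 8238 autosomal genes was 0.03 and 47 were that low. In the same array Dnmt3b, a DNA methyltransferase, was higher (11.93 against 10.97 and 11.02) and the pluripotency factor Klf4 was lower (10.38 against 11.61 and 11.36). Srgn, a proteoglycan core protein, read 10.75 in replicate 1 and 7.44 and 7.82 in replicates 2 and 3. All 3 brain arrays held both Xist (12.25, 12.40 and 12.34), the RNA that silences an X chromosome, and Y-linked RNA, with Ddx3y at 7.80, 7.93 and 8.57. The labels do not say whether embryos of both sexes were pooled. Among the fibroblast arrays, replicate 1 had Ddx3y at 10.11 and the others at 5.12 and 5.16. In brain, growth hormone (Gh) read 11.07 in replicate 2 and 6.93 and 7.45 in replicates 1 and 3. The epidermal genes Krt1 (10.62, 9.29 and 9.26) and Lor (9.57, 7.81 and 7.24) were highest in replicate 1, where Ptgds, a meningeal enzyme, was lowest (9.45, against 11.55 in replicate 2). Replicate 3 had the most Alas2, of red blood cells (9.08, 8.78 and 10.64), and the least Hoxb5, a hindbrain and spinal cord gene (9.26, 9.22 and 7.68). Without ES cell replicate 1 the counts given next were 4110 genes higher and 7495 lower, and over all 6 choices of an array to leave out they were 3801 to 4110 and 6800 to 7495.

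**Figure D1:**
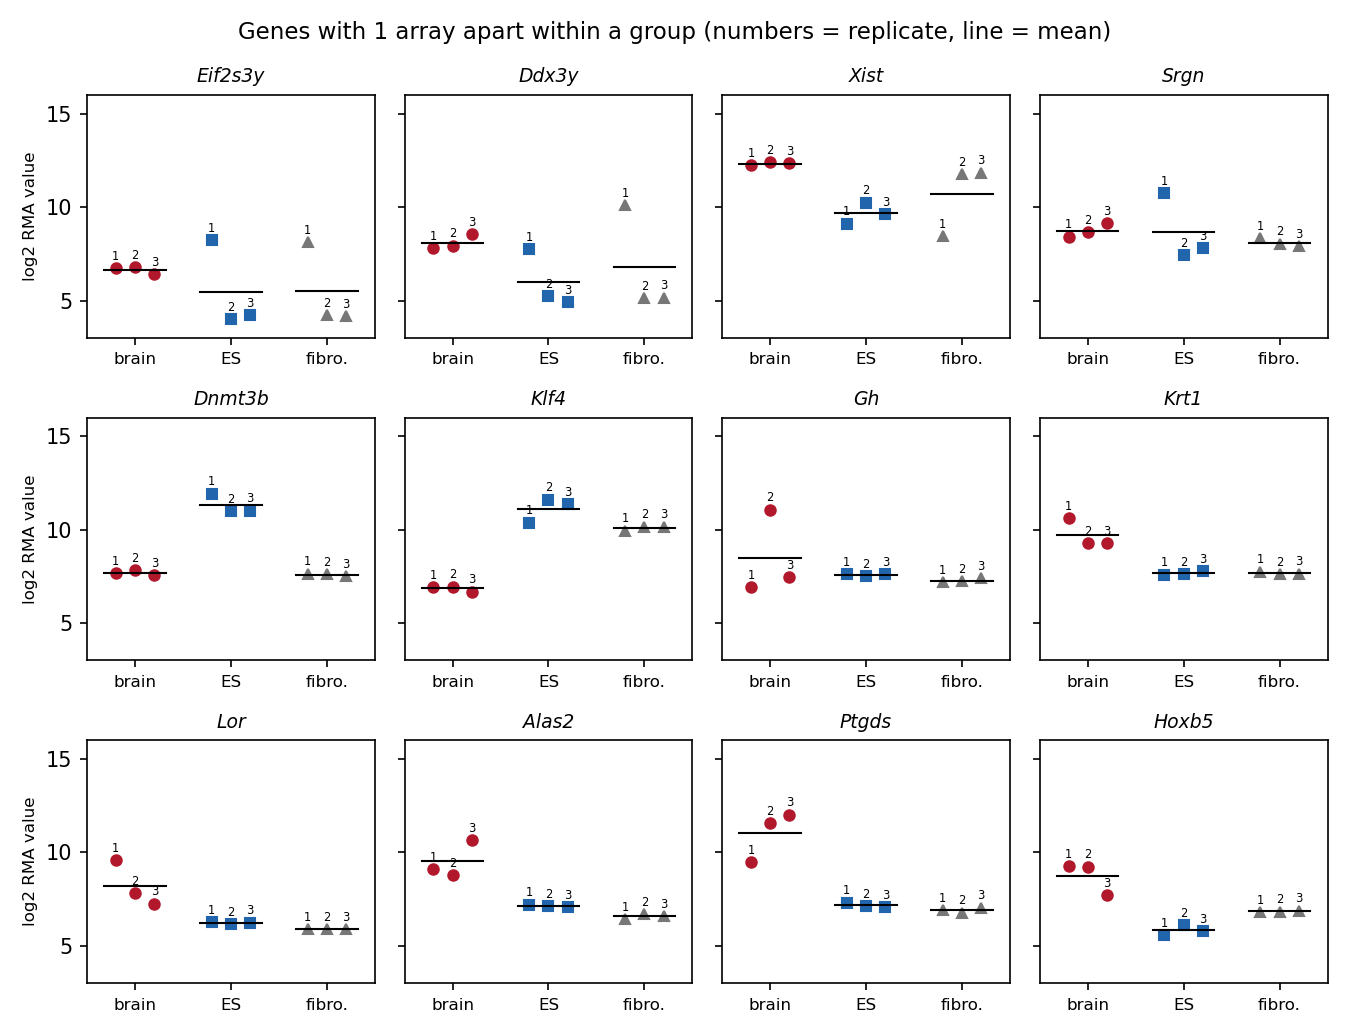
Values of 12 genes on each control array (vertical axis, log2 RMA value), with brain in red, ES cells in blue and fibroblasts in grey, points numbered by replicate and the line at the group mean (n = 3). ES cell replicate 1 lies apart in Eif2s3y (8.24 against 4.0 and 4.21) and Srgn, brain replicate 2 in Gh (11.07), and brain replicate 1 in Lor and Ptgds.

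Brain and ES cells differed in most genes. With limma, 11766 of 17091 genes (68.8%) had a Benjamini-Hochberg adjusted p below 0.05 and are described as called. Of these, 4165 (24.4% of all genes) were higher and 7601 (44.5%) were lower in brain. Counts of called list members below are to be read beside these shares. The 3 brain values and the 3 ES cell values did not overlap in 12688 genes (74.2%). Many called differences were small: 6118 called genes differed by less than 2-fold. At least 4-fold differences, a log2 difference of 2, were called in 946 genes higher in brain (5.54%) and 1167 lower (6.83%). At least 16-fold differences were called in 179 genes higher and 121 lower. The excess of lower calls depended on the scaling of the arrays. The median gene differed by -0.22 as deposited, by -0.12 after each array was centred on its median and by -0.07 after quantile normalization. Of all calls, 35.4% were higher in brain as deposited and 45.7% after quantile normalization. At 4-fold or more the order changed, with 1126 genes higher and 867 lower in brain after quantile normalization. Small differences are therefore best read beside the median gene. In the contrast of brain with wild-type fibroblasts, which uses the same brain arrays, 4297 genes (25.1%) were called higher and 6009 (35.2%) lower in brain.

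**Figure D2:**
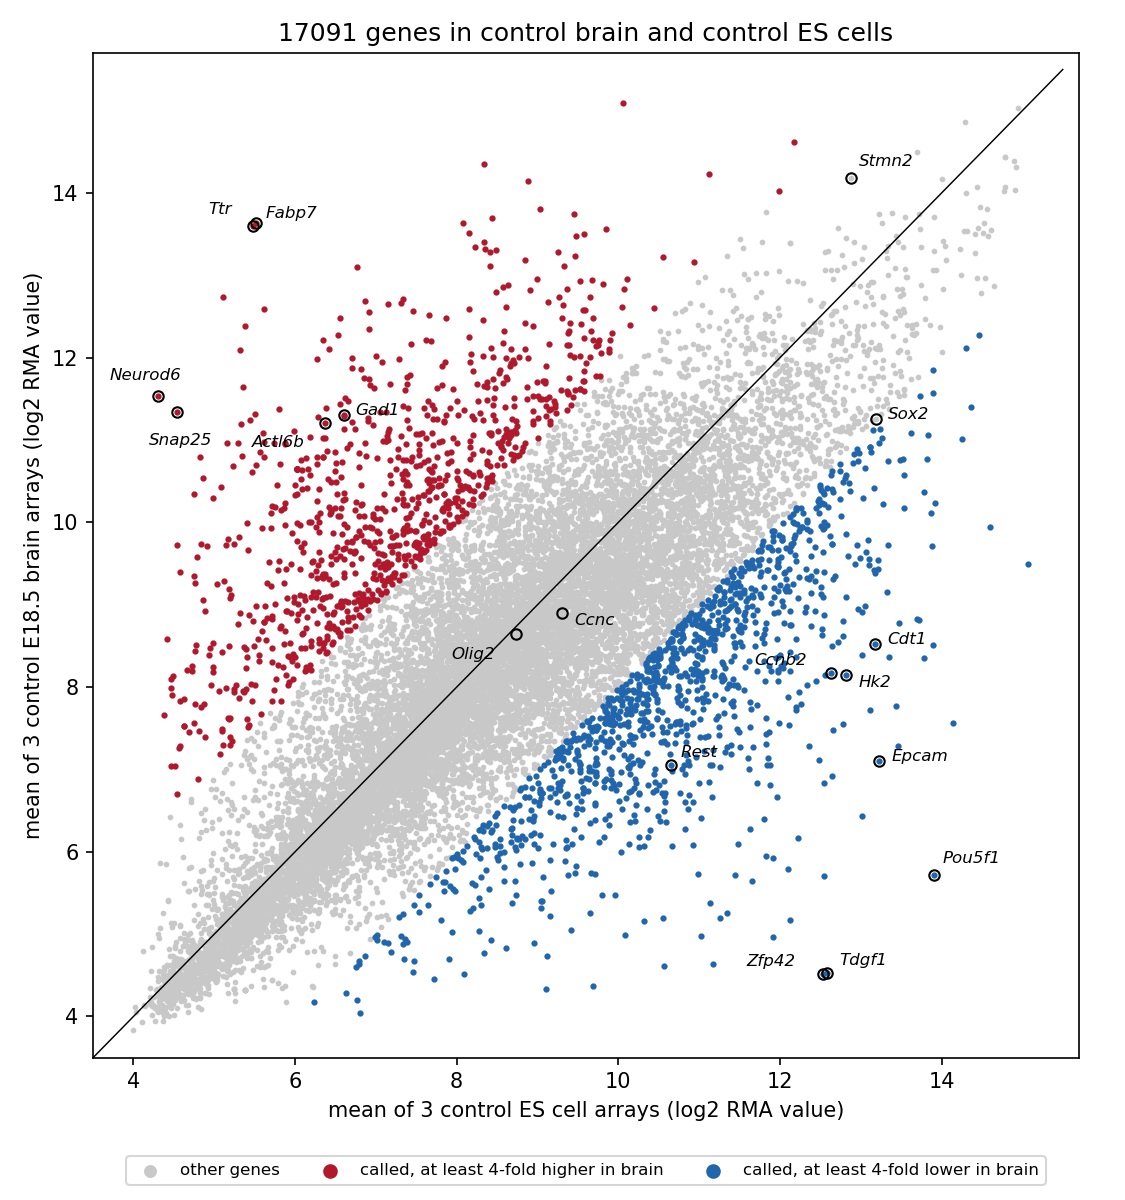
Mean log2 RMA value of each of 17091 genes in 3 control ES cell arrays (horizontal axis) and 3 control brain arrays (vertical axis), with genes that were called and at least 4-fold different in colour and the line of equal values in black. Pou5f1, Tdgf1 and Zfp42 lie at the lower right and Fabp7, Ttr, Snap25 and Neurod6 at the upper left, while Stmn2 and Olig2 lie near the line.

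The 15 largest differences in each direction were taken among called genes without overlap between the groups, if the mean of the higher group exceeded the median gene. Higher in brain were Ttr and Fabp7 (both 8.12 log2 units), Gpm6a (7.63), Neurod6 (7.22), Pkia (7.02), Zic1 (6.99), Snap25 (6.80), Bhlhe22 (6.77), Ly6h (6.33), Ctnna2 (6.29), Nsg2 (6.01), Cadps (5.98), Map2 (5.93), Syt4 (5.87) and 6330403K07Rik (5.87). Ttr encodes the thyroxine carrier made by the choroid plexus, and Fabp7 is the brain lipid-binding protein of radial glia. Gpm6a is a membrane glycoprotein of growing neurites, Neurod6 and Bhlhe22 are transcription factors of cortical neurons, and Snap25, Syt4 and Cadps act in vesicle release. Lower in brain were Pou5f1 (-8.20), Tdgf1 (-8.06), Zfp42 (-8.02), Phf11d and Trap1a (both -6.95), Dppa2 (-6.84), AU018091 (-6.59), Hspb1 (-6.58), Lin28a (-6.53), Cth (-6.31), Upp1 (-6.17), Epcam (-6.13), Krt8 (-6.08), Dppa3 (-6.06) and Cdh1 (-6.04). Pou5f1, Tdgf1, Zfp42, Dppa2 and Dppa3 are markers of pluripotent cells. Cth makes cysteine from cystathionine, Upp1 splits uridine, and Hspb1 is a small heat shock protein.

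Fabp7 read 13.42, 13.44 and 13.94 in the 3 brain arrays and 5.73, 5.18 and 5.53 in the 3 ES cell arrays, here and below in the order of replicates 1 to 3. Its difference was 8.12 ± 0.184 (standard error, SE, of the limma fit, n = 3 and 3, adjusted p = 8.24e-09). Pou5f1 read 5.45, 5.91 and 5.79 in brain and 14.01, 13.87 and 13.85 in ES cells, a difference of -8.20 ± 0.135 (adjusted p with limma 3.58e-09). For both genes the gap between groups was more than 7 log2 units and the 3 arrays of a group lay close together. Fibroblasts read 5.88, 5.96 and 6.06 for Pou5f1, near the brain values, and 5.49, 6.04 and 5.91 for Fabp7, near the ES cell values. The deposited values give no background, so a group this dim is not shown to express the gene, and such differences, their rank included, are those of the array values.

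The pluripotency genes were lower in brain without exception among those measured. All 31 measured of 34 listed were called lower, 30 of them at least 4-fold, with a median difference of -5.07 where the median gene stood at -0.22. Nanog, Tdh and L1td1 were not measured. Tdgf1, the Nodal co-receptor Cripto, read 4.50, 4.49 and 4.58 in brain and 12.50, 12.58 and 12.67 in ES cells. Zfp42 (Rex1) read 4.31, 4.54 and 4.68 in brain and 11.67, 13.12 and 12.80 in ES cells, with the lowest ES cell value in replicate 1. The mean over the list was 6.71 to 6.80 in brain arrays, 11.49 to 11.94 in ES cells and 6.88 to 6.94 in fibroblasts. The smallest difference was that of Sox2, which pluripotent cells and neural progenitors share. Sox2 read 11.21, 11.02 and 11.54 in brain, 13.03, 13.27 and 13.26 in ES cells and 6.19, 6.98 and 6.61 in fibroblasts. Its difference was thus -1.94 (limma adjusted p = 3.31e-06), with every brain array above every fibroblast array. Nr5a2 (-2.07) and Gdf3 (-2.34) had the next smallest differences.

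Genes of the primed epiblast and the early germ layers, the stage after the naive state, were called about as often as other genes. Of 15 measured, 2 were called higher and 7 lower, beside 24.4% and 44.5% of all genes, and the median was -0.32 beside -0.22. Without any 1 of the ES cell arrays, or without brain replicate 1 or 2, 1 was called higher. Nodal (-3.70), the growth factor that maintains the epiblast, and Foxd3 (-2.35) were lower in brain. Eomes was higher (1.08); besides its part in the germ layers it marks intermediate progenitors of the cortex. Otx2, which is active in both epiblast and forebrain, was lower in brain by 1.15 log2 units. The levels of Wnt3 (0.03), Zic2 (0.07), Cer1 (-0.13) and Pou3f1 (-0.15) did not pass the test.

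Genes of the germline and of the 2-cell embryo were also lower in brain. Of 21 measured, 19 were called lower, 10 of them at least 4-fold, and none higher, with a median of -1.55. Tex19.1, which restrains transposons in germ cells, fell from 12.30, 12.65 and 12.99 in ES cells to 7.06, 6.82 and 6.86 in brain. Rhox5, an X-linked homeobox gene, read 11.15, 12.51 and 13.79 in ES cells and 7.05, 7.18 and 7.13 in brain. The ES cell values of Rhox5 spread over more than 2 log2 units, and the difference was -5.37 ± 0.528. Tuba3a (-4.84), Mael (-4.07), Sycp3 (-3.26), Dazl (-3.25), Piwil2 (-2.64) and Ddx4 (-2.48) were lower too. Zfp352 (0.06) and Tdrd1 (-0.10) did not pass the test.

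ES cells grow as an epithelium, and 18 of 20 measured epithelial adhesion and keratin genes were called lower in brain, 13 at least 4-fold, with a median of -2.82 and none higher. Cdh1, the E-cadherin gene, read 12.29, 12.14 and 12.22 in ES cells and 5.87, 5.84 and 6.82 in brain. Krt8 (-6.08) and Krt18 (-5.07), partner keratins of simple epithelia, Epcam (-6.13), Krt19 (-4.20), Cldn7 (-4.19) and Esrp1 (-3.98), an epithelial splicing factor, showed the same direction. Cldn6 differed by -3.42, with ES cell replicate 1 the highest of its group (11.40, 9.05 and 10.05). Ocln (-0.63) did not pass the test.

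**Figure D3:**
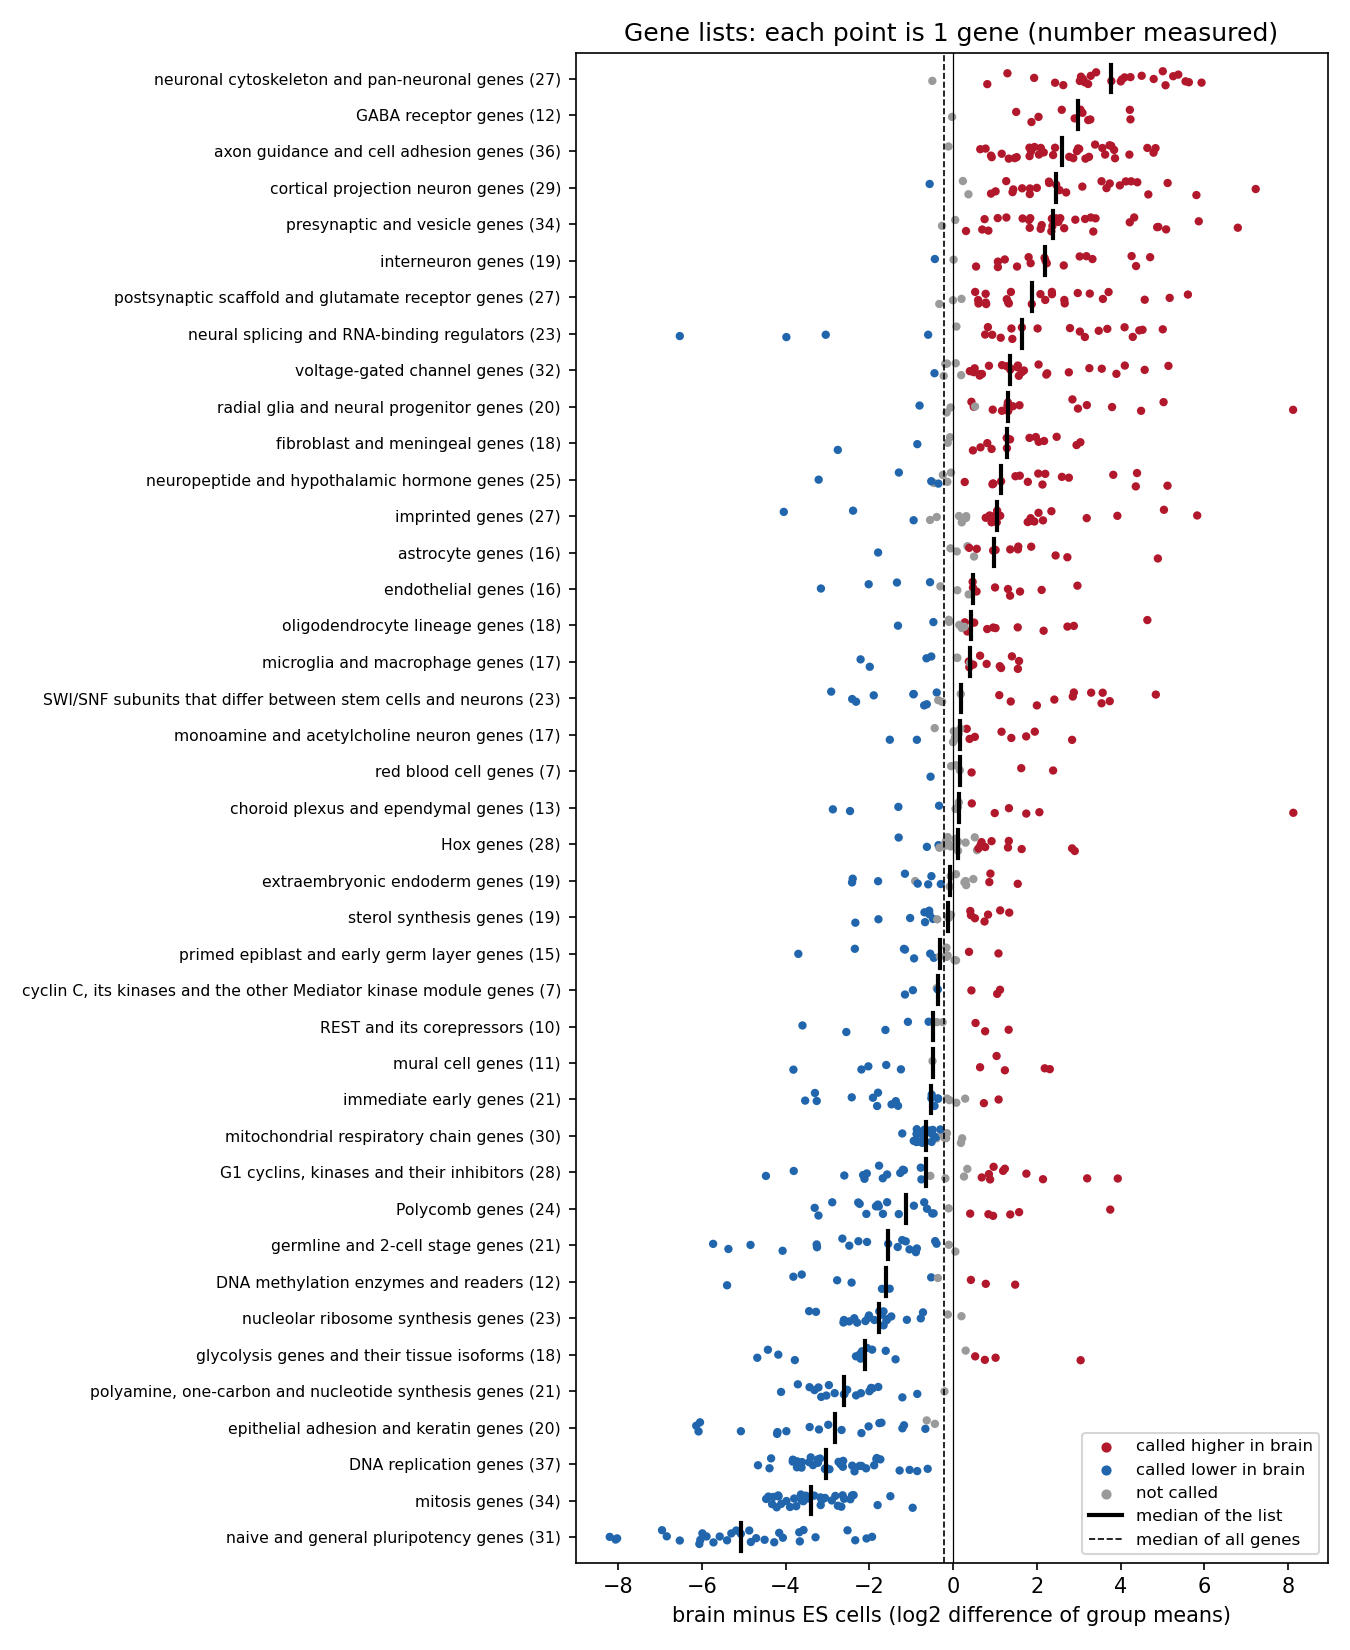
Log2 difference of brain and ES cell means (horizontal axis) for each measured gene of the lists (rows, with the number measured), in red where called higher in brain, blue where called lower and grey where not called, with the list median as a bar and the median of all genes, -0.22, as a dashed line. Pan-neuronal genes have the highest median (3.78) and pluripotency genes the lowest (-5.07).

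All measured genes of DNA replication and of mitosis were lower in brain. The 37 replication genes, which load and run the replicative helicase and polymerases, had a median of -3.03 and 29 were at least 4-fold lower. Cdt1, the licensing factor that loads the Mcm helicase, read 8.62, 8.58 and 8.37 in brain and 13.25, 13.07 and 13.22 in ES cells, a 25.3-fold difference (limma adjusted p = 8.39e-09). Mcm3 (-4.38), Cdc6 (-4.35), Orc1 and Mcm5 (both -3.83), Pole2 (-3.82), Gins2 (-3.74) and Mcm2 (-3.73) followed. Gins3 (-0.61), Cdc7 (-0.86) and Rfc2 (-1.28) had small differences that were called too. The 34 mitosis genes had a median of -3.38 and 31 were at least 4-fold lower. Ccnb2, a B-type cyclin that drives entry into mitosis, read 8.28, 8.05 and 8.17 in brain and 12.74, 12.50 and 12.65 in ES cells. Ccnb1 (-4.41), the kinesin Kif20a (-4.32), the survivin gene Birc5 (-4.29), the kinases Aurka (-4.21) and Nek2 (-4.18), and the centromeric histone gene Cenpa (-4.17) lay close behind. Foxm1 (-0.97), a transcription factor for mitotic genes, Cenpf (-1.50), Cenpe (-1.80) and Spc25 (-2.38) differed least.

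Fibroblasts, which also divide in culture, lay between brain and ES cells for both lists. Array means over the mitosis list were 8.03 to 8.21 in brain, 10.13 to 10.24 in fibroblasts and 11.34 to 11.43 in ES cells. For replication genes they were 8.43 to 8.55, 9.70 to 9.76 and 11.32 to 11.35. The ranges of the 3 groups did not overlap. In brain against fibroblasts, 33 of 34 mitosis genes and 33 of 37 replication genes were called lower, with medians of -1.94 and -1.18, beside 35.2% of all genes.

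Promoters of the mitosis genes were searched for short sequence elements. The cell cycle homology region (CHR), with the letters TTTGAA, and the CCAAT box are known elements of promoters that are active in G2 and mitosis. Both strands of RefSeq promoter windows, 250 bases before to 50 bases after each gene start in build GRCm38.p6, were searched for 13502 measured genes with a window. TTTGAA lay in 21 of 28 mitosis promoters (75%) and in 15.6% of all promoters, and CCAAT in 22 of 28 (78.6%) and in 42% of all. Of 29 replication promoters, 17.2% held TTTGAA and 58.6% held CCAAT, so the CHR letters were common in the mitosis list and near the background share in the replication list. The search says nothing of binding at these letters. The stretches below are shown because they carry both elements before the gene start. They belong to 5 mitosis genes with CCAAT in the 60 bases before, or the 30 bases after, a TTTGAA upstream of the start. These 5 had the largest differences among such genes considered for printing, which did not cover the whole list. They were picked after this search. Capitals mark the TTTGAA, or its complement TTCAAA, around which each stretch was taken and CCAAT or its complement ATTGG, and each run is written 5′ to 3′ on the strand of the gene. The Cdk1 stretch holds a further TTTGAA near its left end, in lower case.
Espl1 (separase, chr15:102296206-102296292, plus strand): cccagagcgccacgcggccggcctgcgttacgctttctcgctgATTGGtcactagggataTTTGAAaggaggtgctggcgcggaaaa
Ube2c (ubiquitin-conjugating enzyme of the anaphase-promoting complex, chr2:164769840-164769928, plus strand): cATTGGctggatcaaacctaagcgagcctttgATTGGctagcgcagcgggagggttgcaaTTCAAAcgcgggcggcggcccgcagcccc
Cdc20 (activator of the anaphase-promoting complex, chr4:118437344-118437421, minus strand): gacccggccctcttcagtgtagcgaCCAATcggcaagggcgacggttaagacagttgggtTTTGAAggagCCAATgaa
Cdk1 (mitotic kinase, chr10:69352913-69352987, minus strand): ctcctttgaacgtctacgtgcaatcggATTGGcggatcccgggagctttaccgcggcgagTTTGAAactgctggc
Top2a (DNA topoisomerase, chr11:99024190-99024272, minus strand): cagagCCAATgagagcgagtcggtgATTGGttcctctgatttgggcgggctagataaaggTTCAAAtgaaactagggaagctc

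These 5 genes were among the lower ones. Cdk1 read 9.43, 9.10 and 9.74 in brain and 13.14, 13.13 and 13.23 in ES cells, a 13.4-fold difference. Cdc20 read 9.64, 9.22 and 9.31 in brain and 13.32, 13.07 and 13.15 in ES cells. The difference was -4.11 for Espl1, -3.98 for Ube2c and -3.62 for Top2a. No brain value reached an ES cell value in any of the 5. They were picked in part for large differences, and 74.2% of all genes had no overlap between the groups.

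Genes that control entry into S phase did not move together. Of 28 G1 cyclins, kinases, inhibitors and their transcription factors, 10 were called higher and 14 lower, beside 24.4% and 44.5% of all genes. Cyclin E1 (Ccne1), the cyclin that starts S phase in ES cells, read 7.86, 7.71 and 7.81 in brain and 12.30, 12.23 and 12.26 in ES cells. Ccnd3 (-3.81), Cdk2 (-2.60), E2f1 (-2.15), Cdc25a (-2.12) and Ccnd1 (-1.58) were also lower. Ccnd2, the D-type cyclin of neural progenitors, was higher and read 11.02, 10.90 and 11.02 in brain and 8.02, 7.38 and 7.94 in ES cells. Fibroblasts read 12.32, 12.32 and 12.21 for Ccnd2, above every brain array. Cdk5r1 (3.93), the p35 activator of the neuronal kinase CDK5, the inhibitor Cdkn1c (2.15) and the retinoblastoma gene Rb1 (1.75) were also higher in brain than in ES cells. Myc (-0.18), Cdk5r2 (0.26) and Cdk6 (0.34) did not pass the test.

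Neuronal genes made up the other side of the comparison. Of 27 pan-neuronal and cytoskeletal genes measured, 26 were called higher in brain, 23 at least 4-fold, with a median of 3.78. Map2, the dendritic microtubule protein, read 12.57, 12.40 and 12.47 in brain, 6.30, 6.76 and 6.58 in ES cells and 6.93, 6.86 and 7.04 in fibroblasts. Dcx (doublecortin), which young migrating neurons need, read 12.74, 12.49 and 12.41 in brain and 6.93, 6.89 and 6.94 in ES cells. Stmn3 (5.55), Gap43 (5.38), Rtn1 (5.25), Stmn4 (5.07), Elavl4 (5.01) and Dpysl3 (4.79) were higher by similar amounts. Nefh, the heavy neurofilament of mature axons, did not pass the test (-0.50), but was called lower without ES cell replicate 1 or brain replicate 2, while Nefm and Nefl, the medium and light chains, were higher by 4.50 and 3.10. Nefm and Nefl were picked after their values were seen.

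ES cells were not low in every neuronal gene. Stmn2, a tubulin-binding growth cone protein, read 12.95, 12.91 and 12.79 in ES cells, 14.17, 14.12 and 14.26 in brain and 8.25, 8.15 and 8.31 in fibroblasts. Uchl1, a ubiquitin hydrolase abundant in neurons, read 11.62, 11.42 and 11.47 in ES cells, 13.44, 13.46 and 13.41 in brain and 9.12, 9.28 and 8.83 in fibroblasts. Nefl read 9.80, 9.57 and 9.57 in ES cells and 12.86, 12.75 and 12.62 in brain, against 6.37, 6.59 and 6.67 in fibroblasts. All 3 were thus called higher in brain, with every ES cell array above every fibroblast array. The oligodendrocyte factors showed a like picture. Olig2 did not pass the test, at 8.55, 8.97 and 8.39 in brain and 9.12, 8.54 and 8.54 in ES cells, against 5.12, 5.55 and 6.04 in fibroblasts. Olig1, picked after its values were seen, read 11.09, 11.45 and 11.12 in brain, 10.79, 10.32 and 10.10 in ES cells and 5.56, 5.47 and 5.44 in fibroblasts. The ES cell means of Map2, Dcx and Snap25 lay within 0.5 log2 units of the fibroblast means.

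**Figure D4:**
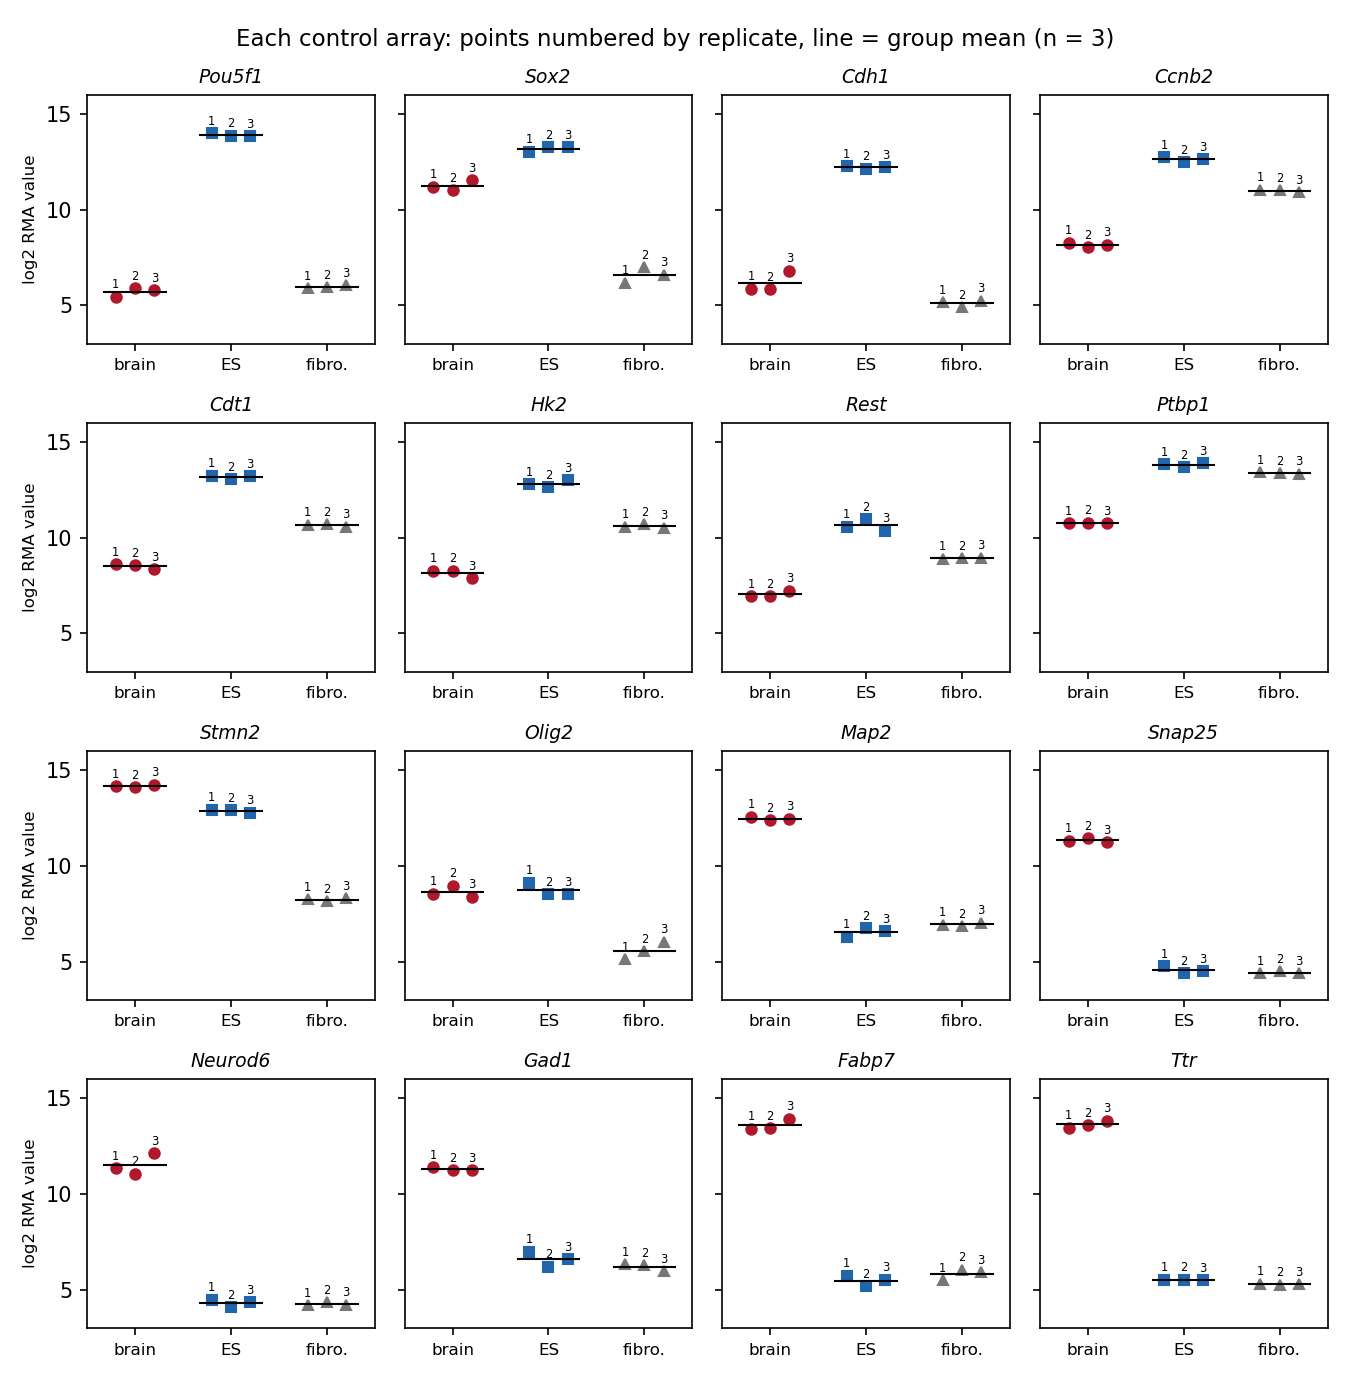
Values of 16 genes on each of 9 control arrays (vertical axis, log2 RMA value), with brain as red circles, ES cells as blue squares and fibroblasts as grey triangles, numbered by replicate, and the line at the group mean (n = 3). Pou5f1 and Cdh1 are high only in ES cells among these 3 groups, Ccnb2 and Cdt1 lie between in fibroblasts, Stmn2 and Olig2 are near brain values in ES cells, and Map2, Snap25, Neurod6, Gad1, Fabp7 and Ttr are high in brain.

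Synaptic genes were higher on both sides of the synapse. Of 34 presynaptic and vesicle genes, 32 were called higher and none lower, 22 at least 4-fold, with a median of 2.38. Snap25, the membrane t-SNARE of vesicle fusion, read 11.33, 11.46 and 11.23 in brain and 4.75, 4.41 and 4.48 in ES cells, where fibroblasts read 4.39, 4.48 and 4.40. Rab3c (5.09), the active zone genes Erc2 (4.87) and Pclo (4.32), synaptophysin (Syp, 4.22) and Syn2 (3.40) followed. The active zone scaffold gene Bsn (0.69) was called with a small difference, and Sypl2 (0.05) and Syngr1 (-0.27) did not pass the test. Syngr1 was called lower without ES cell replicate 2 and with the mean of its probe sets. Syn1, a synapsin that tethers vesicles, was picked after its promoter and values were seen. It read 11.35, 11.51 and 11.11 in brain and 8.80, 9.49 and 9.42 in ES cells. Its promoter window was 1 of 2 presynaptic windows that held the letters TTCAGCACC, and in Syn1 they lay before the gene start. These letters form the first part of the RE1 element, the site of the repressor REST, and 0.496% of all 13502 windows held them on either strand, beside 8.33% of 24 presynaptic windows and 0% of 18 pan-neuronal windows. The other part, GGACAGC, lay in 9.02% of all windows, 4.17% of presynaptic and 27.8% of pan-neuronal windows. The Syn1 stretch is given because it carries the first part, in capitals.
Syn1 (chrX:20921112-20921168, minus strand): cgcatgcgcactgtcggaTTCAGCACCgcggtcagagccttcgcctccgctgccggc

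Of 27 postsynaptic scaffold and glutamate receptor genes, 24 were called higher and none lower, with a median of 1.88. Grm5, the metabotropic receptor mGluR5, read 10.04, 10.59 and 10.43 in brain and 4.80, 4.73 and 4.71 in ES cells. Grm3 (5.17), the AMPA receptor gene Gria1 (4.58), Grm7 (3.71), the kainate receptor gene Grik1 (3.58), neuroligin 1 (Nlgn1, 3.26) and Gria3 (2.98) were also higher. Camk2a (0.20), the kinase of mature excitatory synapses, Grin2d (0.00) and Shank1 (-0.33) did not pass the test, but Shank1 was called lower without ES cell replicate 3. Of 12 GABA receptor genes, 11 were called higher, 9 at least 4-fold, with a median of 2.97. The subunits Gabrb2 (4.24) and Gabra5 (4.22) were followed by Gabrb1 (3.23), Gabra2 (3.04), Gabrg1 (2.90) and Gabra3 (2.04), among others, and by Gabbr1 (1.87), a subunit of the metabotropic receptor, and Gabra4 (1.51). Gabrg3 did not pass the test (-0.03).

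Voltage-gated channel genes were higher in 26 of 32 cases, with 1 lower (2 without ES cell replicate 1) and a median of 1.35. Against fibroblasts 25 were called higher and 1 lower in brain, and the calcium channel gene Cacna1c did not pass the test (0.13). Scn3a, the sodium channel of the embryonic brain, read 10.46, 10.60 and 10.78 in brain and 5.30, 5.61 and 5.51 in ES cells. Scn2a (4.57), the potassium channel gene Kcnd2 (4.10), Scn3b (3.90), the calcium channel subunit genes Cacna2d3 (3.55), Cacnb4 (3.25) and Cacna2d1 (2.76), and Cacna1c (2.25) were next. Hcn2, a pacemaker channel, was lower (-0.45). Cacna1a (-0.14) did not pass the test. Axon guidance and adhesion genes were higher in 35 of 36 cases, with a median of 2.60. Cntn1, a contactin, read 11.34, 11.63 and 11.46 in brain and 6.75, 6.57 and 6.61 in ES cells. Chl1 (4.79), Opcml (4.64), the semaphorin receptor Nrp1 (4.21), Nrcam (3.87), the ephrin receptor Epha5 (3.84), Ncam1 (3.77) and L1cam (3.73) were higher as well. Slit1, a midline repellent, was the 1 member that did not pass the test (-0.11).

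Transcription factors and transmitter genes of different neuron classes were present together. Of 29 genes of cortical projection neurons, 26 were called higher and 1 lower, with a median of 2.46. Neurod6 read 11.37, 11.06 and 12.15 in brain and 4.47, 4.08 and 4.35 in ES cells. The vesicular glutamate transporter gene Slc17a6 (5.12), Myt1l (4.66), Lhx2 (4.40), Nfib (4.25), Foxp2 (4.12), Mef2c (3.98) and Bcl11b (3.74, Ctip2 of subcerebral neurons) were higher. Slc17a7 (0.37), the transporter of mature cortical neurons, and Emx1 (0.23) did not pass the test, and Tle4 was lower (-0.56), though not after quantile normalization. Of 19 interneuron genes, 17 were called higher and 1 lower, with a median of 2.18. Gad1, which makes GABA, read 11.41, 11.24 and 11.25 in brain and 6.98, 6.21 and 6.60 in ES cells. Reln (4.37), Calb1 (3.33), Nr2f2 (3.18), Dlx1 (3.02), Slc32a1 (2.64) and Dlx2 (2.24) followed. Nkx2-1, of the ventral forebrain, was lower (-0.44), and Npas1 did not pass the test (0.01).

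Genes of monoamine and acetylcholine neurons, which are few and sit in the brain stem and basal forebrain, differed less. Of 17 measured, 8 were called higher and 2 lower, beside 24.4% and 44.5% of all genes, and the median was 0.17. Against fibroblasts 9 were called higher and 3 lower in brain, with En1 (-1.42) among the lower. Against ES cells, the vesicular monoamine transporter gene Slc18a2 (2.84), Nr4a2 (1.95), En1 (1.75) and En2 (1.39) were higher in brain. Ddc, which makes dopamine and serotonin from their precursors, was lower in brain (-1.51), as was Pitx3 (-0.86). Dbh (0.01), Slc6a2 (0.04), Slc18a3 (0.08) and Lmx1b (0.00) did not pass the test. Of 25 neuropeptide and hormone genes, 17 were called higher and 4 lower, with a median of 1.15. The processing enzyme gene Cpe (5.12), the granin genes Chgb (4.39) and Scg2 (4.36), Tac1 (3.82), Sst (2.76), Nts (2.60) and Penk (2.20) were higher. Trh, the thyrotropin-releasing hormone gene, went the other way, at 7.45, 7.37 and 7.82 in brain and 10.82, 10.80 and 10.65 in ES cells. Agrp (-1.29), Hcrt (-0.52) and Pcsk1 (-0.35) were also lower, and Vip (-0.05), Ghrh (-0.14) and Avp (-0.24) did not pass the test.

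Glial genes came in 3 lists. Of 20 radial glia and progenitor genes, 16 were called higher and 1 lower, with a median of 1.31. Beside Fabp7 the largest differences were those of Ptprz1 (5.03), Tnc (4.49), Zbtb20 (3.79), the glutamate transporter gene Slc1a3 (3.19), Ednrb (2.98) and Insm1 (2.85). Nes (0.44) and Hopx (0.49) were called with small differences, and Mfge8 was lower (-0.80), though not after quantile normalization. Of 16 astrocyte genes, 11 were called higher and 1 lower, with a median of 0.98. Sparcl1 (4.89), Ttyh1 (2.45) and the water channel gene Aqp4 (1.86) were higher. Gfap, the filament of mature astrocytes, did not pass the test and read 6.78, 7.47 and 7.45 in brain and 6.89, 6.81 and 6.98 in ES cells. S100b (0.09) and Gja1 (-0.06) did not pass it either. Apoe, a lipid carrier of astrocytes, was lower in brain (-1.79). Of 18 oligodendrocyte lineage genes, 11 were called higher and 2 lower, with a median of 0.42. Genes of precursors such as Nkx2-2 (2.88), Bcan (2.73), Cspg5 (2.16) and Pdgfra (1.54) were higher. The myelin genes Mog (-0.10) and Mag (0.15) did not pass the test, and Mobp (-0.47) and Myrf (-1.32), the regulator of myelin genes, were lower.

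Markers of other cell types that a brain holds were measured beside these. The counts that follow stand beside 24.4% of all genes called higher and 44.5% called lower. Of 17 microglia and macrophage genes, 10 were called higher and 4 lower. C1qc (1.57), Ctss (1.55) and C1qa (1.40) led the higher ones, whereas Laptm5 (-1.99) was higher in ES cells. Differences in this list reached down to -2.21, and its median was 0.40. Of 16 endothelial genes, 9 were called higher and 4 lower. Cldn5, of the tight junctions of brain vessels, read 9.43, 9.72 and 9.63 in brain and 7.59, 7.29 and 7.57 in ES cells. Pecam1, an endothelial adhesion gene that mouse ES cells also express, read 7.55, 7.71 and 7.38 in brain and 10.67, 10.58 and 10.85 in ES cells. Of 11 mural cell genes, 5 were higher, with Vtn (2.31), Rgs5 (2.19), Abcc9 (1.24), Kcnj8 (1.04) and Pdgfrb (0.64). The 5 lower ones were the contractile genes Tagln (-3.81) and Acta2 (-2.19) with Ndufa4l2 (-2.02), Anpep (-1.60) and Notch3 (-1.25), and Myh11 (-0.49) did not pass the test. Tagln read 12.52, 11.83 and 11.78 in ES cells, 8.11, 8.26 and 8.32 in brain and 14.10, 14.13 and 13.90 in fibroblasts.

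Among choroid plexus and ependymal genes 6 of 13 were called higher and 4 lower, beside 24.4% and 44.5% of all genes. The list median was 0.14. Against fibroblasts 7 were called higher in brain and 1, Aqp1 (-2.65), lower. Ttr read 13.48, 13.61 and 13.84 in brain and 5.52, 5.53 and 5.51 in ES cells. Enpp2 (2.06), Kcne2 (1.75) and Aqp1 (1.33) were higher, while Calml4 (-2.87) and Folr1 (-2.46) were lower. Of 18 fibroblast and meningeal genes, 14 were called higher and 2 lower, with a median of 1.28. Col1a1 read 10.85, 9.74 and 10.01 in brain, 7.59, 8.37 and 8.12 in ES cells and 14.68, 14.76 and 14.69 in fibroblasts. Fn1, fibronectin, was lower in brain (-2.75). Array means over this list were 8.40 to 8.81 in brain, 7.42 to 7.53 in ES cells and 12 to 12.05 in fibroblasts, so ES cell arrays lay below both other groups. The adult globin genes were not measured. Of 7 measured red blood cell genes 3 were called higher and 1 lower, beside 24.4% and 44.5% of all genes. Alas2 differed by 2.39 and the embryonic globin Hbb-y by 1.63. The brain values of Hbb-y were 6.79, 5.22 and 7.40, and array means over the list were 6.45 to 7.33 in brain and 6.25 to 6.37 in ES cells. The part of vessels, meninges and blood in the brain values was not tested. Of 19 extraembryonic endoderm genes, a fate into which ES cells can stray, 3 were called higher and 8 lower in brain, beside 24.4% and 44.5% of all genes. The number called higher was 7 without ES cell replicate 1 and 6 after quantile normalization, after median centring and in the fit of 9 control arrays. Lamb1 (-2.41) and Lama1 (-2.40), laminin chains, led the lower ones, and Gata6 differed by -1.15. Gata4 (-0.52) and Afp (-0.59), picked after their values were seen, were lower by less than 1 log2 unit, and Sox7 (0.27), Apoa1 (-0.06) and Amn (-0.08) did not pass the test.

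Many of the related genes listed here changed places. Pairs were listed in which 1 member is linked to neural cells and the other is more general or more abundant in stem cells. In 13 of 20 measured pairs the neural member was called higher and the other lower. Of single genes 24.4% were called higher and 44.5% lower, and no such share was computed for pairs of genes. The 13 include Smarca2 with Smarca4, which did not keep its direction after quantile normalization (below). The pairs were written with earlier results of these data known, so their count is no measure of how often related genes part. Phf10 and Kif5b each stand in 2 pairs. No pair showed the reverse, 2 pairs had both members lower, and in 5 pairs a member was not called. The chromatin remodeller SWI/SNF changes several subunits when progenitors become neurons. Its actin-like subunit Actl6b read 11.33, 11.23 and 11.06 in brain and 6.59, 6.07 and 6.44 in ES cells, while Actl6a read 9.15, 9.02 and 9.35 in brain and 11.98, 12.11 and 12.17 in ES cells. The difference was thus 4.84 for Actl6b and -2.91 for Actl6a. Ss18l1 (2.86) and Ss18 (-2.32), Smarcc2 (3.57) and Smarcc1 (-0.94), and Dpf1 (1.10) and Phf10 (-1.90) followed the same pattern. Smarca2, an ATPase, was higher (2.88), and Smarca4, the other ATPase, differed by -0.39 with a limma adjusted p of 0.0463, close to the median gene and 0.09 after quantile normalization. Dpf3 did not pass the test (0.18). Over all 23 SWI/SNF genes measured, 11 were higher and 9 lower. Smarcd3 (3.30), Bcl11b (3.74) and Bcl11a (3.54) were higher, and Smarcd2 was lower (-2.41).

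Pairs outside SWI/SNF gave more examples. The splicing repressor Ptbp1 read 10.75, 10.80 and 10.78 in brain and 13.85, 13.70 and 13.90 in ES cells, and its neural relative Ptbp2 read 11.91, 11.67 and 12.11 in brain and 9.21, 9.19 and 8.92 in ES cells. Fibroblasts read 13.44, 13.39 and 13.35 for Ptbp1, close to ES cells. The de novo DNA methyltransferase Dnmt3a was higher (1.48) and Dnmt3b lower (-3.61) in brain. Of the t-SNARE pair Snap25 was higher (6.80) and Snap23 lower (-1.76). The pairs Dnm1 (2.38) and Dnm2 (-0.71), Ccnd2 (3.20) and Ccnd1 (-1.58), Mycl (1.24) and Mycn (-1.77), Aldoc (1.01) and Aldoa (-2.17), and Cdk19 (1.05) and Cdk8 (-1.15) also split. Ccnd2, listed as the neural member, was lower in brain than in fibroblasts (-1.30). Tubb3, the neuronal tubulin, was higher (4.03) and Tubb5 did not pass the test (0.16), and Kif5c (3.63) and Kif5a (2.34) were higher while Kif5b did not pass it (0.01). Both Ezh1 (-0.50) and Ezh2 (-1.84) were lower. The glucose transporter genes Slc2a3 (-4.17), known as neuronal in the adult, and Slc2a1 (-3.78) were both lower in brain.

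**Figure D5:**
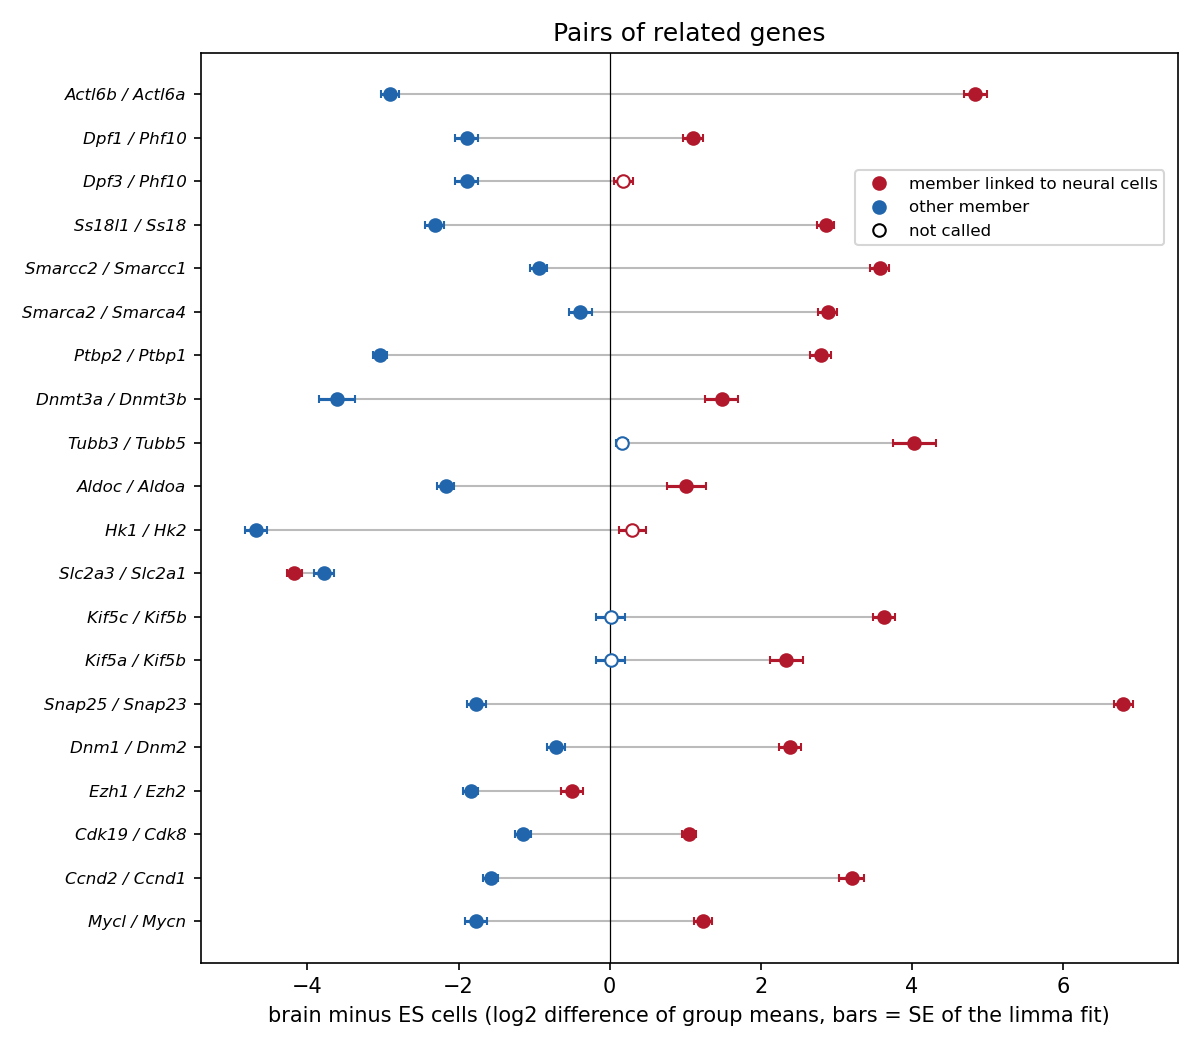
Log2 difference of brain and ES cell means (horizontal axis, bars are the SE of the limma fit, n = 3 and 3) for 20 pairs of related genes, with the neural member in red and the other in blue and open symbols where not called. Most red points lie right of 0 and most blue points left of it; Slc2a3 with Slc2a1 and Ezh1 with Ezh2 lie left of 0 together.

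Regulators of chromatin and of RNA differed by complex. Rest, the repressor of neuronal genes outside neurons, read 6.95, 6.96 and 7.24 in brain, 10.59, 10.98 and 10.37 in ES cells and 8.91, 8.94 and 8.96 in fibroblasts. Its partners Sin3a (-2.55), Rcor2 (-1.62) and Kdm1a (-1.08) were lower, Rcor3 (1.33), Srrm4 (0.77), a neural splicing factor that acts on Rest RNA, and Hdac2 (0.54) were higher, and Rcor1 (-0.39) and Ehmt2 (-0.25) did not pass the test. Of 24 Polycomb genes, 6 were called higher and 17 lower, with a median of -1.12. Eed (-3.31), Cbx7 (-3.21), Jarid2 (-2.89), Phc1 (-2.27) and Mtf2 (-2.07), all of which ES cells use, were lower. Bmi1, a subunit that neural stem cells need, was higher and read 10.23, 10.10 and 10.75 in brain and 6.08, 6.64 and 7.11 in ES cells. Fibroblasts read 9.10, 9.21 and 9.21 for Bmi1, also above every ES cell array. Phc3 (1.36) was higher in brain than in ES cells too. Of 12 DNA methylation genes, 8 were lower, with Dnmt3l (-5.40), Uhrf1 (-3.81), Tet1 (-2.77), Apobec2 (-2.42), Dnmt1 (-1.70), Mbd3 (-1.51) and Tet2 (-0.52, not called after quantile normalization) beside Dnmt3b. Tet3 (0.42) was higher, as was Dnmt3a.

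Among 23 neural splicing and RNA-binding regulators, 18 were called higher and 4 lower, with a median of 1.64. Celf4 (4.52), Rbfox1 (4.45), Celf2 (4.29), Elavl3 (4.09) and Nova1 (3.68) were higher. The 4 lower ones were Lin28a (-6.53), Esrp1 (-3.98), Ptbp1 (-3.04) and Mbnl2 (-0.60), and Lin28a is known as a block on let-7 maturation in stem cells. Msi1, a regulator of neural stem cells, did not pass the test (0.08).

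Some genes on the arrays host or encode microRNAs, short RNAs that repress messages through a seed of bases 2 to 8. They lay outside the rule for named genes and were picked after their values were seen. The arrays measured a longer RNA of the locus and not the mature microRNA. Mir100hg read 12.16, 12.07 and 12.05 in brain, 6.16, 6.41 and 6.70 in ES cells and 10.62, 10.49 and 10.55 in fibroblasts, a difference of 5.67 between brain and ES cells. Mir99ahg (3.09), Mir9-3hg (0.94), Mir124-2hg (5.46) and Mir124a-1hg (1.97) were also higher in brain. Mir17hg read 7.88, 8.09 and 8.16 in brain and 9.36, 10.49 and 10.41 in ES cells (-2.04), and the probe set of Mir294, from a cluster of ES cells, read 9.75, 9.64 and 9.85 and 10.41, 11.71 and 11.55 (-1.48). In both the lowest ES cell value was that of replicate 1. Mir22hg did not pass the test (0.04). Of the RefSeq mature sequences (GRCm38.p6, plus strand) that lie within 4 of these loci, 5 were picked as examples to show their seeds, in capitals.
miR-100-5p (within Mir100hg, chr9:41531437-41531458): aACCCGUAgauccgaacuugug
miR-125b-5p (within Mir100hg, chr9:41581940-41581961): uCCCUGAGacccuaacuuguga
miR-9-5p (within Mir9-3hg, chr7:79505279-79505301): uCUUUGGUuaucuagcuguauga
miR-92a-3p (within Mir17hg, chr14:115044476-115044496): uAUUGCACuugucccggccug
miR-294-3p (Mir294, chr7:3220691-3220712): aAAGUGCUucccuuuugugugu
No 2 of these 5 share a seed.

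Genes of energy and biosynthesis were mostly lower in brain, by unequal amounts. Of 18 measured glycolysis and transport genes, 13 were called lower and 4 higher, with a median of -2.11. Hk2, the hexokinase of growing cells, read 8.28, 8.28 and 7.88 in brain and 12.80, 12.66 and 13.01 in ES cells. Slc2a3 read 9.24, 9.17 and 9.06 in brain, 13.40, 13.34 and 13.25 in ES cells and 7.05, 7.0 and 7.0 in fibroblasts. Slc16a3 (-4.42), a lactate exporter, Pdk1 (-2.32), Pfkl (-2.23) and Slc16a1 (-2.21) were lower too. The enolase of neurons, Eno2, was higher and read 10.47, 10.72 and 10.18 in brain and 7.36, 7.44 and 7.44 in ES cells, as were Aldoc (1.01), the muscle-type Pfkm (0.76) and the brain creatine kinase gene Ckb (0.53). Hk1 did not pass the test (0.30).

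Respiratory chain genes differed far less. Of 30 measured, 23 were called lower and none higher, with a median of -0.64, and none differed by 4-fold. Uqcrc1, of complex III, had the largest difference (-1.21), and Cyc1 (-0.94), Ndufb3 (-0.88), Cox5b and Cox5a (both -0.87) came next. This count rested on the scaling, since quantile normalization gave 10 lower, 2 higher and a median of -0.17. Of 21 polyamine, one-carbon and nucleotide synthesis genes, 20 were called lower, 14 at least 4-fold, with a median of -2.59. Shmt1 (-4.11), the glycine decarboxylase gene Gldc (-3.71), Gart (-3.43), Psph (-3.31), Ppat (-3.21), Mthfd1 (-3.15), Mthfd2 (-3.03) and Cad (-2.97) led. Impdh1 did not pass the test (-0.21). Of 23 nucleolar genes of ribosome synthesis, 21 were called lower, with a median of -1.76. Nhp2 (-3.44) and Dkc1 (-3.27), which also belong to telomerase, Ddx21 (-2.62) and Nolc1 (-2.61) had the largest differences, and Pes1 (-0.13) and Wdr12 (0.20) did not pass the test. Dkc1 is X-linked, and its ES cell values were lowest in replicate 1 (11.64, 12.35 and 12.17). Sterol synthesis genes had no common direction. Of 19, 7 were called higher and 8 lower, beside 24.4% and 44.5% of all genes, with a median of -0.13. Hmgcs1 (1.34), Sc5d (1.12) and Cyp51 (0.83) were higher, and Ebp (-2.33) and Mvd (-1.03) were lower. Ebp is X-linked, and its ES cell values were lowest in replicate 1 (10.49, 11.17 and 11.51).

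Imprinted genes, which are read from 1 parental copy and often restrain or promote growth, were mostly higher in brain. Of 27 measured, 18 were called higher and 3 lower, with a median of 1.04. Nnat (neuronatin) read 15.09, 15.11 and 15.08 in brain and 10.63, 10.06 and 9.48 in ES cells. Nap1l5 (5.83), Ndn (3.92), Usp29 (3.19), Plagl1 (2.35) and Cdkn1c (2.15) were also higher. Ndn, necdin of the Prader-Willi region, read 8.69, 10.18 and 9.87 in ES cells, with replicate 1 lowest, and 13.53, 13.47 and 13.50 in brain. Phlda2, a growth restraint of the placenta, went the other way, at 6.64, 6.66 and 6.86 in brain and 11.69, 10.37 and 10.22 in ES cells. Peg10 (-2.39), of the placenta too, and Igf2r (-0.94) were lower, and Zim1 (0.14), Mirg (0.21), Mest (0.31) and Zrsr1 (0.31) did not pass the test.

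Immediate early genes, which neurons and other cells switch on within minutes of a stimulus, were mostly lower in brain. Of 21 measured, 15 were called lower and 2 higher, with a median of -0.52. Junb read 6.61, 6.60 and 6.35 in brain, 10.23, 9.90 and 10.03 in ES cells and 10.72, 10.44 and 10.55 in fibroblasts. Ier3 (-3.30), Ier2 (-3.26), Dusp1 (-2.42), Arc (-1.91), Btg2 (-1.81), Egr1 (-1.79) and Fos (-1.47) were lower, and Jun (1.09) and the neuronal factor Npas4 (0.73) were higher. Handling before extraction was not given in the sources used here. Hox genes, which pattern the hindbrain and spinal cord and are off in the forebrain, were higher in 10 of 28 cases and lower in 3. All genes together were called higher in 24.4% and lower in 44.5% of cases. Hoxb5 (2.90) and Hoxa5 (2.84) led, with Hoxa5 at 10.68, 10.49 and 9.70 in brain and 7.77, 7.13 and 7.44 in ES cells. Hoxb3 (1.64), Hoxc4 (1.33), Hoxa3 (1.31), Hoxa4 (0.92) and Hoxd3 (0.77) were higher as well. Both Hoxa5 and Hoxb5 were lowest in brain replicate 3. Hoxa7 (-0.63) and Hoxc9 (-0.35) were lower, and Hoxa10 (0.07), Hoxc5 (0.05), Hoxb1 (-0.06) and Hoxa9 (-0.11) did not pass the test.

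Cyclin C itself, the gene that the study deleted in the arrays not used here, did not pass the test. Ccnc read 8.82, 8.65 and 9.24 in brain, 9.28, 9.47 and 9.14 in ES cells and 9.56, 9.61 and 9.54 in fibroblasts, and the brain and ES cell values overlapped. The difference was -0.39 ± 0.165 (SE, limma adjusted p = 0.0608). Without brain replicate 3, the highest of its group, the difference was -0.56 and passed the test, as it did in the fit of 9 control arrays (-0.39) and with array weights (-0.42). Its 2 kinases moved in opposite directions. Cdk8 read 9.69, 9.49 and 9.50 in brain and 10.65, 10.83 and 10.64 in ES cells, and Cdk19 read 9.88, 9.94 and 9.87 in brain and 8.88, 8.85 and 8.80 in ES cells. Of the other members of the kinase module, which hold the kinase on Mediator, Med12 was lower (-0.96) and its relative Med12l higher (1.12). Med13 (0.44) and Med13l (-0.36) were called with differences below 0.5 log2 units, and Med13l turned to 0.04 after quantile normalization.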

How the data were processed

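The authors deposited log2 values of 18 arrays, and the submitters' processing notes name RMA as the method. Per the labels' protocols, cDNA was primed with oligo-dT, so signal comes mainly from 3′ ends. Array type, RMA version and whether arrays were normalized jointly were not given in the sources used here. Of 24121 transcript probe sets, 22560 matched 1 symbol in the RefSeq table (GRCm38.p6), and each of 17091 genes was represented by its brightest probe set (mean of 18 arrays). Of these, 116 shared all values with another gene and cannot be told apart. No level was compared between genes.

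The 6 arrays were fitted with limma 3.58.1 in R 4.3.3 (lmFit, eBayes with an intensity trend, Benjamini-Hochberg adjustment over all genes), and fibroblasts in a fit of 9 control arrays. The fit was tested on simulated data. The 42 gene lists (893 of 953 entries measured), the pairs and the comparison were chosen with earlier results of these data known. Named genes were the 15 largest differences each way and, per list, the 8 largest, 4 smallest and up to 4 opposite ones, with all members of lists of up to 12, all pairs, Ccnc and sex-linked genes; the text names a subset, and some genes are not reported here. Same-numbered arrays did not deviate together (correlations -0.0022, -0.108 and -0.0274), so the numbers were not taken as pairs. Alternatives changed the fit, filter, scaling, prior, weights, test and arrays used. With 3 arrays a group, the limma p-values set each difference against the spread between these samples, which limma partly shares across genes.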

Additional observations from a re-analysis of the deposited data

How the results depend on the processing

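The counts were 4165 genes higher, 7601 lower and, at 4-fold or more, 946 higher and 1167 lower in brain. Limma's treat test against a 2-fold difference lowered the first pair to 1502 and 2251, since it asks for more than a nonzero difference, and the filter at the 40th percentile lowered the second count to 5055, since 10254 genes were tested. With an array left out, the ranges were 3801 to 4110 higher, 6800 to 7495 lower, 935 to 964 at least 4-fold higher and 1142 to 1192 at least 4-fold lower. The replicate block gave 4053 higher and 7377 lower. Welch's test per gene gave 3294 and 5792, and quantile normalization 5168 and 6140, which turned the small differences of Smarca4 (-0.39 to 0.09) and Med13l (-0.36 to 0.04). Quantile normalization also ended the calls of Tle4, Mfge8, Tet2, Pcsk1, Ezh1 and Hoxc9. Counts within gene lists, sex-linked genes aside, moved by over 1.5 times in 49 cases under treat, 26 under the filter, 14 under Welch's test, 6 under quantile normalization and at most 4 under any other alternative. Welch's test gave 11 germline genes lower in place of 19, 9 fibroblast and meningeal genes higher in place of 14, 6 microglia genes higher in place of 10, 5 sterol genes lower in place of 8, 1 glycolysis gene higher in place of 4 and no red blood cell gene higher in place of 3, with Alas2 and Hbb-y no longer called. Apart from treat and the filter, no alternative moved any of the 4 counts over all genes, given first, by over 1.5 times. The order of the 4-fold counts nevertheless changed with the scaling. They were 1021 higher and 1015 lower after median centring, and 1126 higher and 867 lower after quantile normalization. Of 355 called genes named in the text, 320 were called under each alternative that tested them other than treat. The call was lost for Smarca4 without any 1 array other than brain replicate 2, for Med13 without any other than ES cell replicate 2, for Med13l without ES cell replicate 2 or 3 or brain replicate 1 or 3, and for Pcsk1 without ES cell replicate 2 or 3 or brain replicate 1 or 2. It was lost for Hoxc9 without ES cell replicate 1 or brain replicate 1 or 3, for Ezh1 without brain replicate 1 or 3, and for Ddx3y without ES cell replicate 2 or 3 or brain replicate 3. Dim genes are limited by background, which the deposited values do not give.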
